A study of Homo sapiens with 8 samples.

Results

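The genes described here are 47 neighbours on the long arm of chromosome 10, from CCNJ to BLOC1S2, whose levels were shifted between a breast cancer line and its BRCA1-carrying derivative. They were chosen by the difference in log2 intensity between the lines, as a list of neighbouring gene symbols, so the difference between the lines is given below as a description, with no test. Of the 47 genes, 44 were measured by a probe set that the platform annotation pairs with exactly 1 gene, out of 18417 genes measured in all. Each of the 44 had a single such probe set. ARHGAP19 and PGAM1 were covered by probe sets shared with ARHGAP19-SLIT1 and PGAM4 and were left out, and PIK3AP1 was not analysed here.

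HCC1937 is a breast cancer cell line with a truncated BRCA1, and HCC1937+BRCA1 is the same line carrying exogenous wild-type BRCA1. The labels do not give the promoter of the exogenous gene, or whether the derivative is a clone or a pool. RNA was hybridised to 8 Affymetrix arrays, 2 from each line without COH29 and 2 from each line after 10 µM COH29 for 24 h. COH29 inhibits ribonucleotide reductase, and the series asks how cells with and without working BRCA1 respond to it. For the control arrays the labels name neither a vehicle nor hours in culture. They are also silent on whether replicate arrays stand for separate cultures, so the p-values below rest on array-to-array spread that may be technical.

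Genes that lie side by side on a human chromosome mostly have separate promoters and unrelated functions, and each responds to its own regulators. The members include the NF-kB kinase gene CHUK, the Wnt activators FRAT1 and FRAT2, the aspartate aminotransferase gene GOT1, the heme A synthase gene COX15, the drug export pump gene ABCC2, subunit genes of the BLOC complexes that build lysosome-related organelles (HPS1 and BLOC1S2), and genes used mainly in lymphocytes, muscle, brain or cartilage.

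Replicate arrays agreed closely, with a Pearson r over all genes of 0.996 to 0.997 in the 4 groups. Averaged over the 8 arrays, 11 of 11 measured basal and epithelial breast markers had a signal above the median of all genes (7.92). So did 3 of 4 luminal hormone receptor markers and 1 of 3 fibroblast markers. Of 5 B lymphoid and 3 leukocyte markers, 0 did, and the list mean of the B lymphoid markers ran from 5.95 to 6.25 over the 8 arrays. VIM had a mean of 7.07 in HCC1937 control and 10.63 in HCC1937+BRCA1 control, and KRT5 of 10.98 and 9.28. By line, VIM thus lay under the median of all genes in HCC1937. KRT19 did so in HCC1937+BRCA1 (7.75 in control and 7.62 with COH29). Of 3 endothelial markers, 0 were above the median of all genes averaged over the arrays, and their list mean ran from 7.89 to 7.97 in HCC1937 control, 6.92 to 6.94 with COH29, 7.08 to 7.19 in HCC1937+BRCA1 control and 6.44 to 6.54 with COH29. Among them PECAM1 went from 9.30 to 7.35 with COH29 in HCC1937 and from 8.11 to 6.63 in HCC1937+BRCA1, and CDH5 from 8.75 to 7.48 and from 7.41 to 6.91, while VWF went from 5.73 to 5.98 and from 5.88 to 5.93. The part of these markers in the results below was not tested. BRCA1 itself read 10.55 in HCC1937 control and 10.46 in HCC1937+BRCA1 control, so its probe set does not check the line labels.

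Without COH29, the run was lower in HCC1937+BRCA1 than in HCC1937. Values are log2 intensities, on which a difference of 1 is a 2-fold change. The median difference of the 44 members, HCC1937+BRCA1 minus HCC1937, was -0.54, against -0.01 over all genes. That median corresponds to a 1.45-fold lower signal. In bulk RNA, fewer cells with a transcript and less of it per cell cannot be told apart. Of the 44 members, 43 had a difference below 0. Both HCC1937+BRCA1 arrays lay below both HCC1937 arrays for 34 members, a pattern found in 31.8% of all genes. The choice of the members fixes this count, so nothing is read from it.

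**Figure D1:**
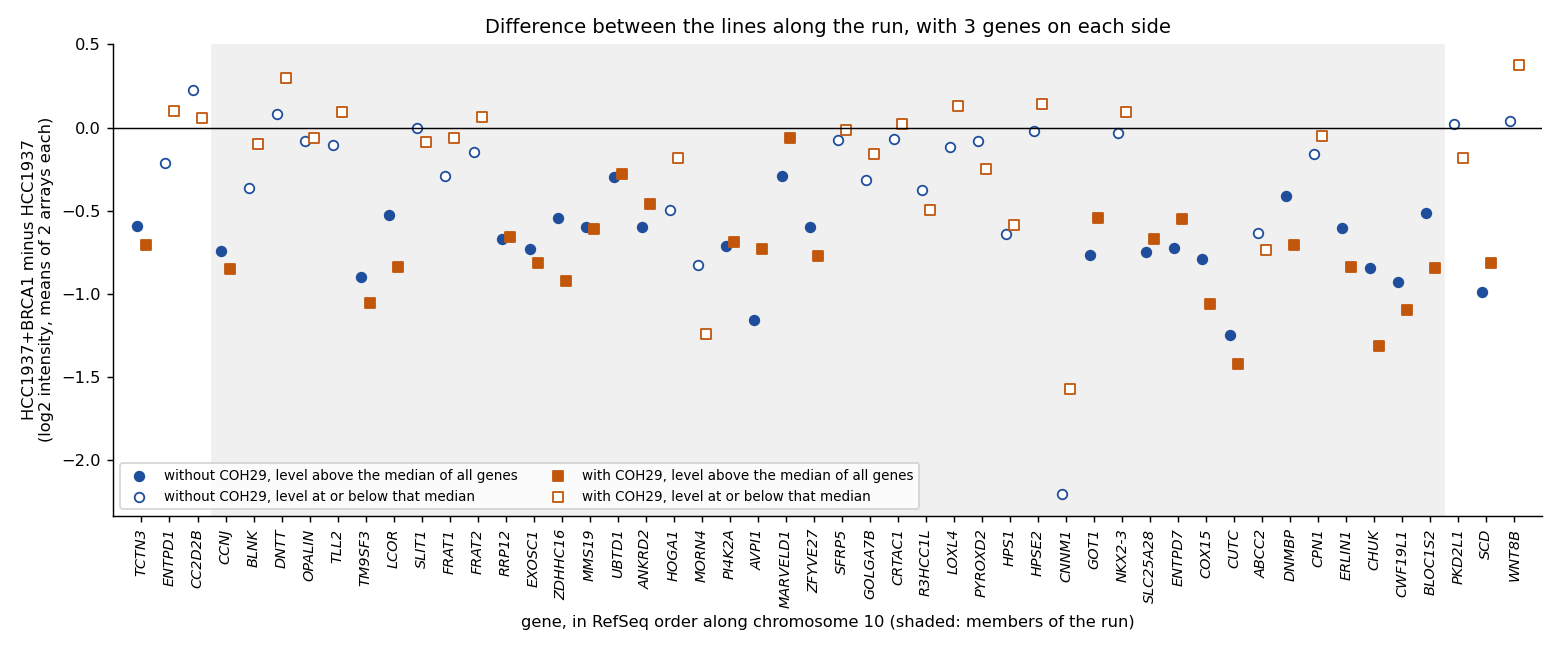
Difference between the lines (vertical axis, log2 intensity, HCC1937+BRCA1 minus HCC1937, means of 2 arrays each) for the 44 measured members in gene order, shaded, and 3 measured genes on each side. Circles are arrays without COH29 and squares arrays with it, and filled symbols mark genes with a mean signal above the median of all genes. Filled symbols of the members run from -1.43 (CUTC) to -0.06 (MARVELD1), and many open symbols lie near 0.

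The largest difference belonged to CNNM1, a member of a family of magnesium transport proteins. CNNM1 read 8.24 and 8.45 on the HCC1937 control arrays and 6.09 and 6.18 on the HCC1937+BRCA1 control arrays, a difference of -2.21 ± 0.12 (SE, n = 2 arrays per group). Its HCC1937+BRCA1 values lay under 6.59, the 30th percentile of mean signal over all genes, so no fold is given. CUTC, which encodes a copper-binding protein, read 8.91 and 9.04 against 7.68 and 7.77, a difference of -1.25. AVPI1, named for its induction by vasopressin, read 9.65 and 9.27 against 8.30 and 8.31, a difference of -1.16. For all 3 genes the groups were far apart compared with the gap between arrays of a group. CWF19L1, related to a yeast splicing factor, read 9.92 and 9.82 against 8.94 on both arrays, a difference of -0.93. TM9SF3, which encodes a membrane protein of the secretory pathway, read 12.22 and 12.19 against 11.33 and 11.27, a difference of -0.90. The first and last measured members behaved alike in direction. The cyclin gene CCNJ read 9.05 and 8.74 against 8.21 and 8.09, and BLOC1S2 read 8.71 and 8.77 against 8.21 and 8.24.

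The size of the difference followed the signal of the probe set. Of the 44 members, 23 had a mean signal above the median of all genes (7.92). In these 23 the difference was below 0 throughout, from -1.25 to -0.29, with a median of -0.71, and both HCC1937+BRCA1 arrays lay below both HCC1937 arrays in all 23 (37.5% of all genes in that range). In the 21 members at or below that signal the median was -0.14, and the arrays were apart in 11 (26.1% of all genes in that range). These counts too follow from how the members were chosen. Across the 44 members the difference and the mean signal had a Pearson r of -0.50 and a Spearman rho of -0.70, given as a description since the members share the same arrays. A probe set's signal also depends on its probes, so it is no measure of one gene's abundance against another's. The part of low signal in the smaller differences was not tested.

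**Figure D2:**
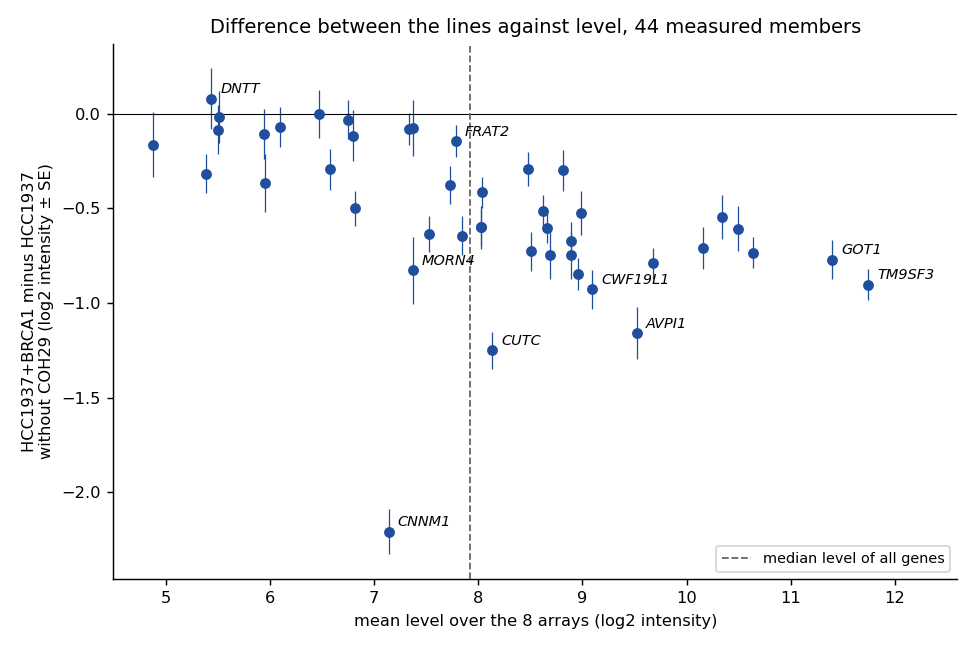
Difference between the lines without COH29 (vertical axis, log2 intensity, with the standard error of the fit) against the mean signal over the 8 arrays (horizontal axis, log2 intensity) for the 44 measured members. To the right of the dashed line, the median signal of all genes, the 23 members lie between -1.25 and -0.29, and to the left most of the 21 members lie near 0, apart from genes such as CNNM1 and MORN4.

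By role, the genes of RNA processing, metabolism and membrane traffic had the largest median differences among the groups of 3 or more genes. The choice of the members on this difference applies to each group as well. The 3 genes of RNA processing had differences of -0.67 for the ribosome biogenesis gene RRP12, -0.73 for the exosome subunit gene EXOSC1 and -0.93 for CWF19L1. The 8 measured genes of metabolism, metals and iron-sulfur proteins had a median of -0.74. Among them were GOT1 (11.52 and 11.39 against 10.63 and 10.74), COX15 (10.26 and 10.22 against 9.45 and 9.46) and SLC25A28, a mitochondrial iron importer gene, at -0.75. The 8 genes of membrane traffic and organelles had a median of -0.60, among them HPS1 at -0.64 and the phosphatidylinositol 4-kinase gene PI4K2A at -0.71. CHUK, which encodes the IKK alpha kinase of the NF-kB pathway, read 9.54 and 9.49 against 8.69 and 8.65.

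The 6 genes of secreted and matrix proteins (TLL2, SLIT1, CRTAC1, LOXL4, HPSE2 and CPN1) had differences between -0.16 and 0.00. The Wnt genes had differences of -0.29 (FRAT1), -0.14 (FRAT2) and -0.07 (SFRP5, a secreted antagonist). DNTT, which encodes the template-independent DNA polymerase of developing lymphocytes, was the 1 member with a difference above 0. It read 5.55 and 5.16 in HCC1937 control and 5.43 and 5.44 in HCC1937+BRCA1 control, so the groups overlapped. SLIT1, HPSE2, NKX2-3, a homeobox gene, and CRTAC1 came next, with differences between -0.07 and 0.00. The 10 members whose arrays overlapped without COH29 were DNTT, OPALIN, TLL2, SLIT1, SFRP5, CRTAC1, LOXL4, HPSE2, NKX2-3 and CPN1.

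The shift did not end at the borders of the run. Just outside on the CCNJ side, CC2D2B (a difference of 0.22) and ENTPD1 (-0.22) had signals below percentile 10, and the next gene, TCTN3, which encodes a protein of the ciliary transition zone, read 9.98 and 9.95 in HCC1937 control and 9.39 and 9.35 in HCC1937+BRCA1 control, a difference of -0.59. On the BLOC1S2 side, PKD2L1 (0.02) and WNT8B (0.04) flanked SCD, the stearoyl-CoA desaturase gene, which read 12.14 and 12.03 against 11.17 and 11.01, a difference of -0.99. Inside, CCNJ and BLOC1S2 had differences of -0.75 and -0.51. Also inside the stretch, but not members, lay ZNF518A (-0.16), the pseudogene RPL13AP5 (-0.10), whose reading may include its parent gene, and C10orf62 (-0.04). The 20 measured genes on the CCNJ side had a median of -0.36, and those on the BLOC1S2 side -0.27. Restricted to genes above the median signal, these medians were -0.53 (10 genes) and -0.46 (9 genes), beside -0.71 in the members.

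Along the whole of chromosome 10, 335 of 679 measured genes had a signal above the median of all genes. In consecutive blocks of 25 such genes, the block that holds the run had a median difference of -0.67, with 25 of 25 genes below 0. From the start of the chromosome, the first 3 blocks, ZMYND11 to PARD3, had medians of -0.02, -0.07 and -0.08. The next blocks reached -0.40 (CUL2 to TFAM) and -0.48 (ANK3 to PPA1), and the 7 blocks from LRRC20 to HTRA1, the run among them, lay between -0.59 and -0.67. The last block of 35 genes, C10orf88 to SPRNP1, had a median of -0.28. The run thus lay inside a longer stretch of lower signal. Its block had the lowest median of the 7, the next being -0.66 (LRRC20 to CHCHD1), and with COH29 its median of -0.73 lay between those of the blocks on either side, -0.85 (STAMBPL1 to TCTN3) and -0.68 (SCD to NT5C2). Of the 25 genes of that block, 23 are members, chosen on this difference, so nothing is read from its rank or its count below 0. Over the other 21 autosomes, the median of genes above the median signal ran from -0.55 to 0.32, against -0.46 on chromosome 10, so chromosome 10 was not alone.

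**Figure D3:**
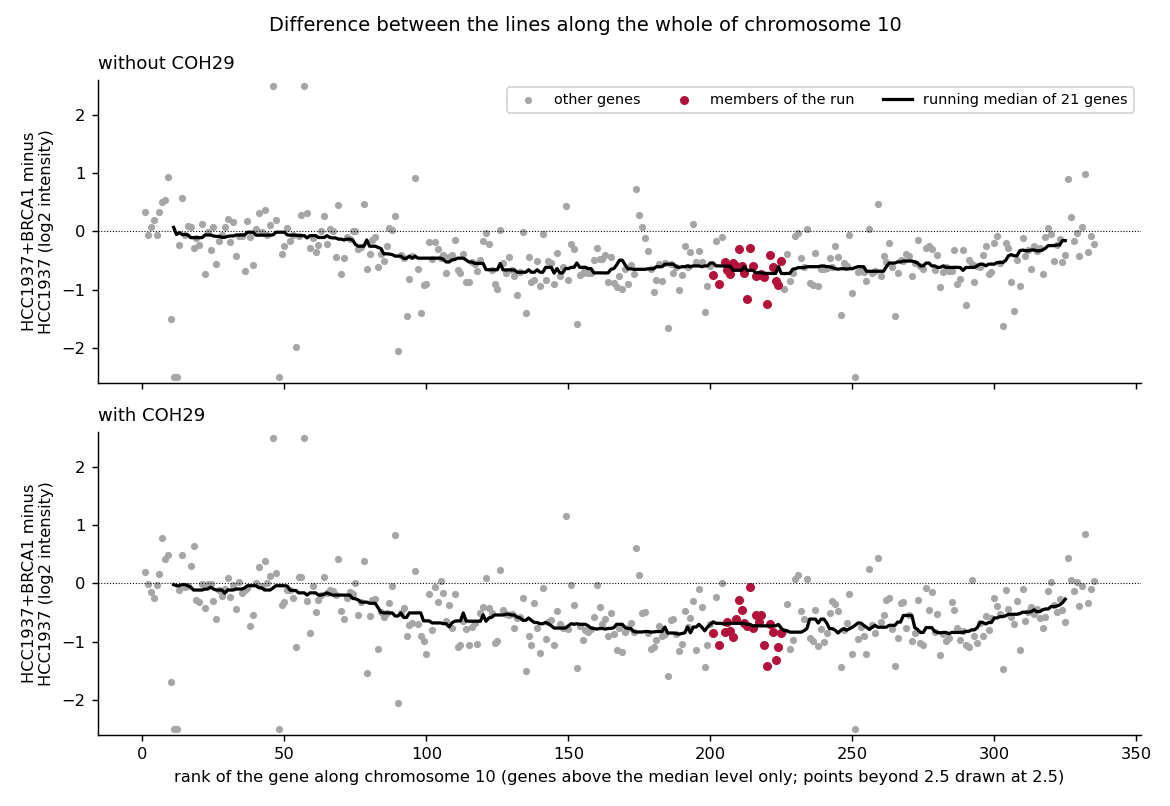
Difference between the lines (vertical axes, log2 intensity, HCC1937+BRCA1 minus HCC1937) for the 335 genes of chromosome 10 with a signal above the median of all genes, by rank along the chromosome, without COH29 (top) and with it (bottom). Grey points are single genes, red points the 23 members among them, and the black line is the running median of 21 genes, which leaves 0 well before the run and stays near -0.6 to -0.8 on both sides of it.

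The same difference was read from the arrays with COH29, which are separate samples. The median of the 44 members was -0.57 there, against -0.0033 over all genes, and 37 members were below 0. Both HCC1937+BRCA1 arrays lay below both HCC1937 arrays for 30 members (32% of all genes), and the same 30 were apart without COH29 as well (21.8% of all genes). For 26 members all 4 HCC1937+BRCA1 arrays lay below all 4 HCC1937 arrays (13.1% of all genes). The rule does not say which arrays showed the shift, so these values are a description too. CUTC differed by -1.43 with COH29 and -1.25 without, TM9SF3 by -1.05 and -0.90, RRP12 by -0.66 and -0.67. CNNM1 differed by -1.57 with COH29 and -2.21 without, CHUK by -1.31 and -0.85, and AVPI1 by -0.73 and -1.16. Without HCC1937+BRCA1 COH29 replicate 2 the median of the members was -0.65.

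COH29 changed single members of the run in both directions, and the median of the members stayed near that of all genes. In HCC1937, 5 of the 44 members rose and 6 fell at a limma adjusted p under 0.05, where 10.2% and 12.5% of all genes did. In HCC1937+BRCA1, 6 rose and 9 fell, where 13.6% and 20.1% of all genes did. The members' shares of 11.4% and 13.6% in HCC1937, and 13.6% and 20.5% in HCC1937+BRCA1, were close to these backgrounds. The median change of the members was 0.01 in HCC1937 and 0.05 in HCC1937+BRCA1, beside 0.04 over all genes in each line. Averaged over the lines, 21 members were called, where 42.1% of all genes were, and of these 9 rose and 12 fell, where 19.3% and 22.8% of all genes did. The effect in each line shares its control arrays with the difference between the lines, whereas the average over the lines is balanced with respect to it. Of the 44 members, 4 rose in both lines, 4 fell in both, and 0 were called in opposite directions. The shares of all genes called in these ways were not counted, so nothing about the run is read from them. With each array shifted to one median, 7 rose and 5 fell in HCC1937. There fewer members were called when COH29 replicate 1, control replicate 1 or control replicate 2 of HCC1937 was left out. The number of all genes called fell in the same fits, so the drop was not particular to the members.

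**Figure D4:**
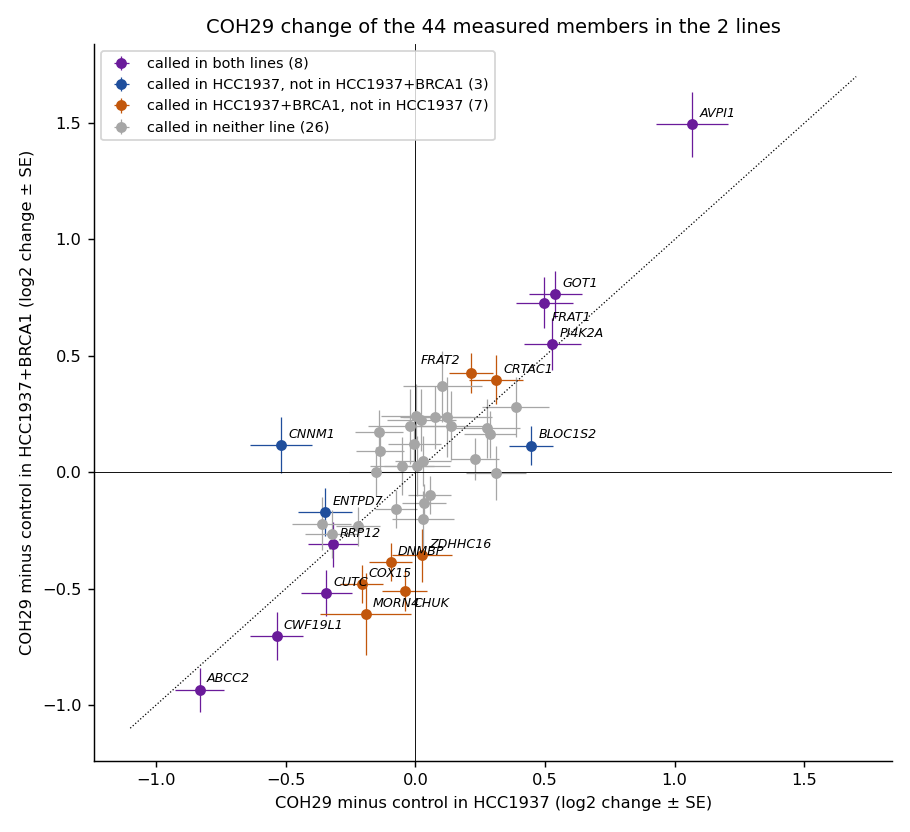
COH29 change in HCC1937 (horizontal axis) and in HCC1937+BRCA1 (vertical axis), each as a log2 change with its standard error, for the 44 measured members. Colours mark the lines in which the change passed the test, and the dotted line marks equal change. AVPI1 lies farthest up, ABCC2 farthest down, and 26 members were called in neither line, a count not made over all genes.

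The largest rise was that of AVPI1. In HCC1937 it read 9.65 and 9.27 without COH29 and 10.44 and 10.62 with it, a change of 1.07 ± 0.14 (SE, n = 2 arrays per group, adjusted p = 0.000816). In HCC1937+BRCA1 it read 8.30 and 8.31 without and 9.67 and 9.93 with COH29, a change of 1.49 ± 0.14 (adjusted p = 7.46e-05). In each line both treated arrays lay above both control arrays, and the treated HCC1937+BRCA1 arrays lay above both untreated HCC1937 arrays. GOT1, the cytosolic aspartate aminotransferase gene, read 11.52 and 11.39 without and 11.92 and 12.07 with COH29 in HCC1937. In HCC1937+BRCA1 it read 10.63 and 10.74 without and 11.36 and 11.54 with it. The changes were 0.54 ± 0.10 and 0.76 ± 0.10 (adjusted p = 0.00531 and 0.000502), again with no overlap.

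FRAT1, whose product binds GSK3 and supports Wnt signalling, rose by 0.50 ± 0.11 and 0.73 ± 0.11 (adjusted p = 0.0109 and 0.000968). It read 6.47 and 6.36 without and 6.95 and 6.88 with COH29 in HCC1937, and 6.05 and 6.19 without and 6.72 and 6.99 with it in HCC1937+BRCA1. Its mean signal of 6.58 lay at percentile 29.8 of all genes, and the part of low signal was not tested. Its neighbour FRAT2, of like function, rose in HCC1937+BRCA1 from 7.55 and 7.56 to 7.93 and 8.03 (0.43, adjusted p = 0.00449), and was at 0.22 in HCC1937 (adjusted p = 0.10). PI4K2A, measured next to AVPI1 on 1 side, rose by 0.53 and 0.55 (adjusted p = 0.0086 and 0.00457). It read 10.34 and 10.16 without and 10.71 and 10.84 with COH29 in HCC1937, and 9.47 and 9.60 without and 9.98 and 10.19 with it in HCC1937+BRCA1. MARVELD1, on the other side of AVPI1, was at -0.14 and 0.09 (adjusted p = 0.32 and 0.47). CRTAC1, a cartilage matrix gene with a signal at percentile 22.4, rose by 0.40 in HCC1937+BRCA1 (adjusted p = 0.0181), from 5.80 and 5.97 to 6.17 and 6.39, and was at 0.31 in HCC1937 (adjusted p = 0.0653). The 6 secreted and matrix genes, all with signals below the median of all genes, had changes from 0.19 to 0.40 in HCC1937+BRCA1. In HCC1937 they had changes from 0.00 to 0.31. The part of low signal in the change of CRTAC1 was not tested. BLOC1S2, a subunit gene of BLOC-1, rose by 0.45 in HCC1937 (adjusted p = 0.00568), from 8.71 and 8.77 to 9.22 and 9.15, and was at 0.11 in HCC1937+BRCA1 (adjusted p = 0.33). In HCC1937 the calls of GOT1, FRAT1 and PI4K2A ended without control replicate 2 (adjusted p = 0.0502, 0.0844 and 0.0771), and that of FRAT1 also without COH29 replicate 1 (0.0649). In HCC1937+BRCA1 the call of CRTAC1 ended when COH29 replicate 2 (0.119) or control replicate 1 (0.123) was left out.

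The 250 bases before the RefSeq start of AVPI1, GOT1 and FRAT1 are shown because these are the members with the largest rises that have an entry in the promoter table (GRCh38.p14). Capitals mark matches, on either strand, to TGATGNAA (an element bound by ATF4 with C/EBP proteins), ACGTG (the core of the hypoxia element) and CCAAT (bound by NF-Y). TTTGAA (the CHR element of cell cycle genes) was searched too. AVPI1 lies on the minus strand, chr10:97687242-97687491, GOT1 on the minus strand, chr10:99430625-99430874, and FRAT1 on the plus strand, chr10:97319021-97319270.
AVPI1: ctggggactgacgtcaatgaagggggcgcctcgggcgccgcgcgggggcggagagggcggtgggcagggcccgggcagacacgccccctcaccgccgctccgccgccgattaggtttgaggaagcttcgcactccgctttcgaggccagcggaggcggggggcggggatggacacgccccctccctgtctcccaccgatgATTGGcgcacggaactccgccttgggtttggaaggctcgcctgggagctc
GOT1: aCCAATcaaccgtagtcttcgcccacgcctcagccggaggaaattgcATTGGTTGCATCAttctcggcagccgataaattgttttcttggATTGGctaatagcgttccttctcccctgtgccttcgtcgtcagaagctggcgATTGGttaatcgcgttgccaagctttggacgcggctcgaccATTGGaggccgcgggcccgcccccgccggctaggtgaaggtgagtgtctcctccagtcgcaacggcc
FRAT1: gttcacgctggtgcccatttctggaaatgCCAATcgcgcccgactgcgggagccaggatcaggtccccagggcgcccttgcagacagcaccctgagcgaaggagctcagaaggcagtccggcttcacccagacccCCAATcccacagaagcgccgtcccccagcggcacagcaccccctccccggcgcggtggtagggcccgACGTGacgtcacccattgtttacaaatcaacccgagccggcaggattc
In GOT1 the run of capitals ATTGGTTGCATCA joins a CCAAT match on the reverse strand and, directly after it, TTGCATCA, which is TGATGNAA read on the other strand, between 198 and 191 bases before the start. GOT1 was the 1 measured member of 39 with a promoter entry that holds TGATGNAA, which is found in 3.19% of 27305 promoters of this length. GOT1 holds 5 CCAAT matches. CCAAT is found in 16 of the 39 members and in 33.0% of all promoters, and ACGTG in 12 of 39 and in 18.7%. FRAT1 holds ACGTG between 48 and 44 bases before its start. TTTGAA is found in 2 of 39 members, neither of them among the genes shown, and in 13.6% of all promoters. These are matches of letters, not measured sites.

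The largest fall was that of ABCC2, which encodes the export pump MRP2. In HCC1937 it read 8.31 and 8.27 without COH29 and 7.36 and 7.55 with it, a change of -0.83 ± 0.09 (SE, adjusted p = 0.000412). In HCC1937+BRCA1 it read 7.65 and 7.66 without and 6.79 and 6.66 with it, a change of -0.93 ± 0.09 (adjusted p = 0.000112). The treated HCC1937 arrays thus fell below the untreated HCC1937+BRCA1 arrays. CWF19L1 went from 9.92 and 9.82 to 9.28 and 9.38 in HCC1937 and from 8.94 on both arrays to 8.11 and 8.36 in HCC1937+BRCA1. Its changes were -0.54 ± 0.10 and -0.70 ± 0.10 (adjusted p = 0.00582 and 0.00084).

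CUTC and COX15 are neighbours, and both fell in HCC1937+BRCA1. CUTC went from 8.91 and 9.04 to 8.54 and 8.73 in HCC1937 (-0.34, adjusted p = 0.0345) and from 7.68 and 7.77 to 7.24 and 7.17 in HCC1937+BRCA1 (-0.52, adjusted p = 0.00334). COX15, which makes the heme A of cytochrome c oxidase, went from 9.45 and 9.46 to 8.98 and 8.96 in HCC1937+BRCA1 (-0.48, adjusted p = 0.00194), and in HCC1937 from 10.26 and 10.22 to 9.97 and 10.09 (-0.21, adjusted p = 0.10). RRP12 fell by 0.32 and 0.31 on the log2 scale (adjusted p = 0.0424 and 0.0351), from 9.40 and 9.36 to 9.04 and 9.08 in HCC1937, and from 8.70 and 8.72 to 8.28 and 8.52 in HCC1937+BRCA1. In HCC1937 the call of CWF19L1 ended without control replicate 1 (adjusted p = 0.0512), and that of CUTC without control replicate 1 (0.0706), control replicate 2 (0.203) or COH29 replicate 1 (0.187), and also with the 4 HCC1937 arrays fitted alone (0.0648). The calls of RRP12 ended under 7 of the alternatives in HCC1937 and 8 in HCC1937+BRCA1, with adjusted p up to 0.175 and 0.194.

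**Figure D5:**
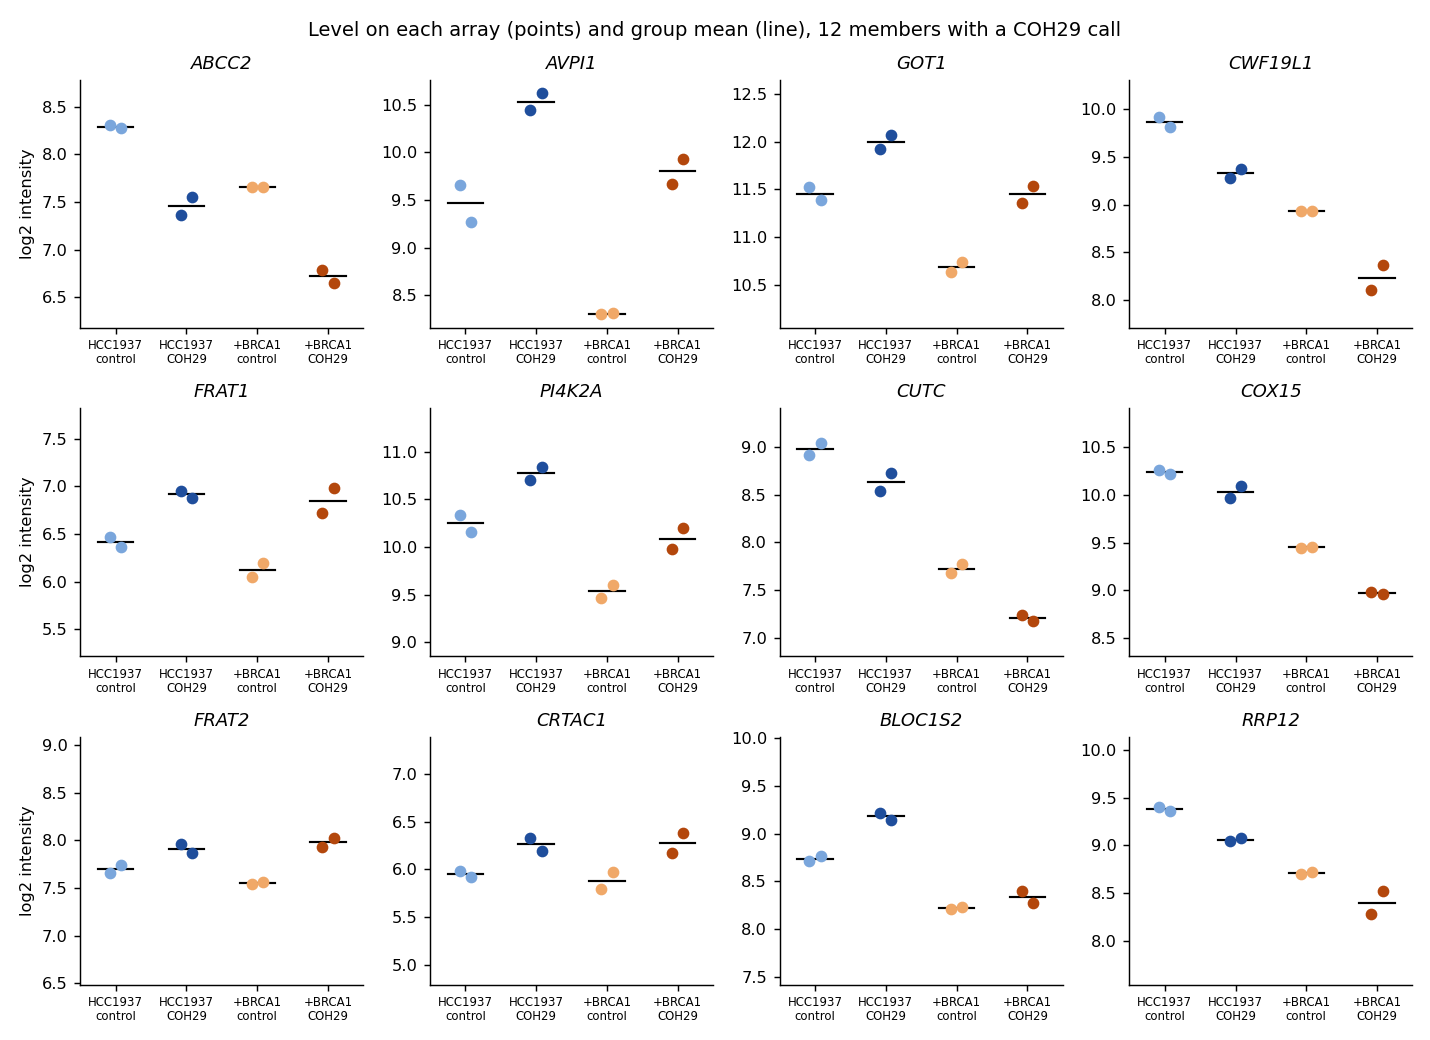
Log2 intensity on each of the 8 arrays (points) and group means (lines) for the 12 members with a COH29 call and the smallest p of the average over the lines or of the difference of effects, the vertical axis of each panel spanning the same range of 2.6. In ABCC2, AVPI1, GOT1 and CWF19L1 the change with COH29 has the same direction in both lines, on top of the lower level of HCC1937+BRCA1.

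The 250 bases before the starts of the members with the largest falls, ABCC2 (plus strand, chr10:99782390-99782639) and CWF19L1 (minus strand, chr10:100267639-100267888), are shown with the same capitals, together with the 106 bases that separate the starts of COX15 and CUTC, which are transcribed away from each other (chr10:99732128-99732233, plus strand).
ABCC2: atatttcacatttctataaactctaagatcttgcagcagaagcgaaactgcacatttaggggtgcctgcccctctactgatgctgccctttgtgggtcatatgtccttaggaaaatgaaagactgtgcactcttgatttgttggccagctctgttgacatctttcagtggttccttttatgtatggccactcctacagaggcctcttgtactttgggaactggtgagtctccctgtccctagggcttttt
CWF19L1: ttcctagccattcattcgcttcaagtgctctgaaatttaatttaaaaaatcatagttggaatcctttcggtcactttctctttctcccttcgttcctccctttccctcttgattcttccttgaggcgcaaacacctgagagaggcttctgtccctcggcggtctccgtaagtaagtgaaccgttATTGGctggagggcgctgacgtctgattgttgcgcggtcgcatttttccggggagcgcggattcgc
COX15 to CUTC: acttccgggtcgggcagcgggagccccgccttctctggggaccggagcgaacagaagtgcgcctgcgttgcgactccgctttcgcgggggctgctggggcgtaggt
CWF19L1 holds a CCAAT match on the reverse strand, between 66 and 62 bases before its start. The other 2 sequences hold none of the 4 motifs.

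Some members passed the test in 1 line. In HCC1937+BRCA1, CHUK fell from 8.69 and 8.65 to 8.20 and 8.12 (-0.51, adjusted p = 0.00179), while in HCC1937 its change was -0.04 (adjusted p = 0.77). The Cdc42 exchange factor gene DNMBP fell by 0.39 on the log2 scale (adjusted p = 0.00592), MORN4 by 0.61 (0.0257) and the palmitoyltransferase gene ZDHHC16 by 0.36 (0.0406). In HCC1937, CNNM1 went from 8.24 and 8.45 to 7.68 and 7.98 (-0.52, adjusted p = 0.0146), and ENTPD7, a nucleotide-hydrolysing enzyme gene, fell by 0.35 on the log2 scale (0.0401). CNNM1 was at 0.12 in HCC1937+BRCA1 (adjusted p = 0.49), where its control arrays read 6.09 and 6.18. Those values lie under the 30th percentile of mean signal over all genes (6.59), and the part of low signal was not tested. CNNM1 also had the largest difference between the lines, on which the members were chosen, and its HCC1937 control arrays enter both comparisons. CHUK and DNMBP kept their calls under every alternative that was run. MORN4 lost its call without HCC1937+BRCA1 COH29 replicate 1 (adjusted p = 0.156), control replicate 1 (0.0518) or control replicate 2 (0.11), and CNNM1 without HCC1937 COH29 replicate 1 (0.0936) or control replicate 2 (0.114). ZDHHC16 and ENTPD7 lost theirs under 7 and 9 alternatives. CHUK, DNMBP, MORN4, ZDHHC16 and ENTPD7 were named after their values were seen.

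A difference of the COH29 effects between the lines was not detected for any member. In limma's test of the effect in HCC1937 minus that in HCC1937+BRCA1, 0 of the 44 members were called, where 0.956% of all genes were. By its make-up, this contrast is also the difference between the lines without COH29 minus that with COH29. The members were chosen on the difference between the lines, so the contrast draws on the values behind that choice. Nothing about the members as a set is read from it. At an unadjusted p under 0.05 there were 7 members, and 13.2% of all genes. The smallest adjusted p among the members was 0.132, for CHUK, with a difference of 0.47 ± 0.12. CNNM1, whose signal in HCC1937+BRCA1 was low, had a difference of -0.63 ± 0.17 (adjusted p = 0.15). BLOC1S2 had a difference of 0.33 ± 0.12 (0.29) and AVPI1 of -0.43 ± 0.20 (0.41). With standard errors of this size, 2 arrays per group do not settle whether these genes responded alike.

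Averaged over the lines, 9 members that are not among the 12 above also passed the test. CCNJ rose by 0.33 (adjusted p = 0.0165) and R3HCC1L by 0.22 (0.0319). The iron-sulfur targeting gene MMS19 (-0.23), the muscle ankyrin gene ANKRD2 (-0.29), MORN4 (-0.40), HPS1 (-0.29), ENTPD7 (-0.26), DNMBP (-0.24) and CHUK (-0.28) fell, with adjusted p between 0.00577 and 0.0289. HPS1, DNMBP and CHUK kept the call under every alternative that was run. The other 6 lost it under at least 1, CCNJ without HCC1937+BRCA1 COH29 replicate 2 (0.058) or HCC1937 control replicate 2 (0.0626), MMS19 without HCC1937 control replicate 1 (0.0527), and ANKRD2, ENTPD7, MORN4 and R3HCC1L under 3 to 6 alternatives. In all, 23 members were called in at least 1 COH29 comparison, and 21 in none. The average over the lines alone called 42.1% of all genes. The share of all genes called in at least 1 comparison was not counted, so nothing is read from the 23.

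The 21 members without a COH29 call had changes from -0.15 (GOLGA7B) to 0.31 (LCOR) in HCC1937 and from -0.20 (ERLIN1) to 0.37 (BLNK) in HCC1937+BRCA1. TM9SF3 read 12.22 and 12.19 without and 12.26 and 12.25 with COH29 in HCC1937, and 11.33 and 11.27 without and 11.15 and 11.26 with it in HCC1937+BRCA1, changes of 0.05 ± 0.08 and -0.10 ± 0.08. EXOSC1 read 11.10 and 11.02 without and 10.99 and 10.98 with COH29 in HCC1937, and 10.36 and 10.29 without and 10.17 on both arrays with it in HCC1937+BRCA1. ERLIN1, which encodes a lipid raft protein of the endoplasmic reticulum, read 10.79 and 10.89 without and 10.85 and 10.88 with COH29 in HCC1937, and 10.34 and 10.12 without and 10.19 and 9.87 with it in HCC1937+BRCA1. In these 3 genes the 4 arrays of HCC1937+BRCA1 lay below the 4 arrays of HCC1937. The nuclear receptor corepressor gene LCOR, with changes of 0.31 and -0.01 (adjusted p = 0.0908 and 0.98), and BLNK, the B cell adaptor gene, with 0.10 and 0.37 (0.67 and 0.0937), had the largest changes that missed the threshold. OPALIN, TLL2, SLIT1, SFRP5, LOXL4, HPSE2, NKX2-3, CPN1, GOLGA7B, HOGA1, PYROXD2, UBTD1, MARVELD1, ZFYVE27, SLC25A28 and DNTT made up the rest, the first 8 of them and DNTT with overlapping arrays of the lines without COH29.

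Pathway partners of the members that lie outside the run were counted too, each in HCC1937 first and HCC1937+BRCA1 second. Of all genes, 10.2% rose and 12.5% fell in the first line, and 13.6% and 20.1% in the second. Among 12 measured Wnt pathway genes, 2 rose and 2 fell in the first line, against 4 and 2 in the second. Among 9 NF-kB genes the counts were 1 and 2, against 3 and 3, and among 10 genes of the BLOC and HPS complexes 1 and 2, against 2 and 2. Among 10 other exosome subunits they were 0 and 2, against 1 and 4, while EXOSC1 was at -0.08 and -0.16 (adjusted p = 0.54 and 0.16). Among 7 genes of heme and copper supply to the respiratory chain they were 0 and 1, against 1 and 2. Between the lines without COH29, the medians of these 5 lists were 0.10, -0.39, -0.10, 0.00 and -0.16 in the same order, given as a description. The lists hold genes of chromosome 10 as well, NFKB2 (-0.61), HPS6 (-0.47) and TCF7L2 (-0.15). They also hold genes of chromosomes 13 and 5, where genes above the median signal had medians of -0.55 and -0.36. These are EXOSC8 (-1.08) and DIS3 (-0.24) on chromosome 13, and APC (-0.54) and AP3B1 (-0.53) on chromosome 5. The lists are thus not all apart from shifted chromosomes.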

How the data were processed

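The authors deposited a table of log2 intensities of 33297 probe sets on 8 arrays. Per the submitters' processing notes, RMA and Partek were used, their versions unstated. RMA corrects background, equalises the distributions of the arrays and summarises probes on the log2 scale. No further normalization was applied. The number of arrays limits the precision.

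Probe sets paired with exactly 1 gene by the platform annotation (19460) were kept, per gene the one with the highest mean over the 8 arrays, which left 18417 genes. Gene order and promoter sequences came from RefSeq (GRCh38.p14), in which 39 of the 44 measured members had a promoter entry. Using limma 3.58.1 (R 4.3.3), 1 model with a mean per group took in every gene and array (eBayes, Benjamini-Hochberg over all genes, 4 residual degrees of freedom), and genes were called at an adjusted p under 0.05. Errors are standard errors of the fit. The fit was also run on simulated data with independent noise and 200 changed genes, fewer than were called for COH29 in either line. That run is not used as support for the calls. The members, gene lists and tests were chosen with earlier results of these data known. The rule for values by array named the 12 members with a COH29 call and the smallest p (of the average over the lines or of the difference of effects), the 5 largest falls and 5 highest values between the lines, the ends of the run and 3 genes outside each end. Other members were named after their values were seen. Alternatives were cyclic loess or a shift of every array to a common median, a filter on genes under the 30th percentile, eBayes with trend and robust, a replicate block, averaging probe sets per gene, fits to the 4 arrays of 1 line, and omission of each array. Averaging changed no member's estimate, since each had a single probe set. Omitting an array of 1 line left the estimates in the other line as they were and altered only their standard errors and adjusted p. Python 3.11.15 with pandas 2.3.3 wrote the tables, and matplotlib 3.10.9 drew the figures.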

Additional observations from a re-analysis of the deposited data

How the results depend on the processing

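The counts of called members and the medians of the difference between the lines were recomputed under each alternative. With genes below the 30th percentile left out, the median difference between the lines was -0.62 without COH29 and -0.70 with it, over 34 members. Leaving out 1 array at a time gave -0.54 to -0.52 without COH29 and -0.65 to -0.50 with it. Leaving out 1 array at a time, 6 to 11 members were called in HCC1937, 12 to 15 in HCC1937+BRCA1, 16 to 23 on average over the lines and 0 for the difference of effects, and 0 remained the count for the difference under all other alternatives. The other settings left each count within 1.5 times of its main value. Of the calls of single members, 3 of 11 in HCC1937 (ABCC2, AVPI1 and BLOC1S2), 11 of 15 in HCC1937+BRCA1 and 15 of 21 averaged over the lines held under every alternative run for them, which for FRAT1 and CRTAC1 leaves out the filter on low genes that drops both, and no called change turned its direction. For the replicate block, the deviations of same-numbered arrays from different groups had a Pearson r between -0.20 and 0.26. The highest was between the control and COH29 arrays of HCC1937+BRCA1. Whether arrays with the same number share a batch was not tested. With the block, 9, 16, 22 and 0 members were called in the 4 comparisons, in place of 11, 15, 21 and 0. With the numbers crossed between the lines, a setting chosen after seeing the data, they were 15, 16, 22 and 0. Among all 18417 genes, the COH29 effect in HCC1937 called 4179 (2336 to 4952 over the alternatives), and the difference of effects called 176 (41 to 566).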
